A study of Homo sapiens with 44 samples.

Results

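The myosin heavy chain genes described here are 7 of the 60499 genes in the deposited tables. MYH6, MYH7, MYH7B and MYH3 belong to the sarcomeric class of striated muscle. MYH9, MYH10 and MYH14 encode the non-muscle chains IIA, IIB and IIC. All 7 were chosen by name, as the sarcomeric and non-muscle chains of a cardiac differentiation. The filter on low counts kept all 7 and left 22955 genes for testing. A myosin II molecule pairs heavy chains that carry the ATP-hydrolysing motor with light chains that stabilise and regulate it. In the human heart MYH6 encodes the faster alpha chain, prevalent in the atria, and MYH7 the slower beta chain, prevalent in the ventricles, and the balance between them is widely used as a sign of chamber and maturity. Non-muscle chains drive cell shape, adhesion and cell division in nearly every cell, stem cells included.

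RNA was sequenced from H1 cells, an established human embryonic stem cell line, in 44 libraries from 12 groups. The group called pluripotent (3 wells) was kept on laminin LN-521. All other groups grew on LN-521 and LN-221 together: day 0 in Nutristem medium (3 wells), days 1 and 3 with CHIR99021, which blocks GSK3 and so switches Wnt signalling on (3 wells each), and day 5 with IWP2, an inhibitor of Wnt secretion (5 wells). Days 7 and 9 followed without either compound (5 wells each) in the insulin-free medium used since day 1, and days 11 (5 wells), 14, 20, 30 and 90 (3 wells each) in medium with the CTS supplement. Every library comes from this 1 line, and the replicates are wells, so the p-values below measure the spread between wells. The cells were not sorted, and in bulk RNA fewer cells of a type and less RNA per cell cannot be told apart.

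Library totals were 6937136 to 33498022 estimated counts, and RNA integrity numbers were 7.4 to 10. Markers followed the labels: the summed level of 5 pluripotency markers was 7321 to 7367 CPM (counts scaled to a common library size, here with TMM factors) in the pluripotent wells and 13.0 to 24.9 at day 90, and 6 cardiomyocyte markers summed to 50.4 to 56.7 CPM at day 0 and 12538 to 18579 at day 90. At day 11, replicates 1 and 2 stood apart from replicates 5, 6 and 7. Their 6 endoderm markers summed to 5232 and 9545 CPM against 268 to 333, and their cardiomyocyte markers to 3740 and 2425 against 9383 to 10526. No comparison below is made with day 11, but its wells enter the common estimate of the spread, so calls that differ without replicates 1 and 2 (a check added after seeing the data) are given beside the results.

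The genes of the alpha and beta chains are neighbours. In GRCh38 with the GENCODE 29 annotation, MYH6 (ENSG00000197616) occupies chr14:23381990-23408277 and MYH7 (ENSG00000092054) chr14:23412738-23435718, both on the minus strand and 4460 bases apart. MYH7B (ENSG00000078814) lies on the plus strand at chr20:34975403-35002437 and MYH3 (ENSG00000109063) on the minus strand at chr17:10628526-10657309. Of the non-muscle chains, MYH9 (ENSG00000100345) lies at chr22:36281277-36388067 and MYH10 (ENSG00000133026) at chr17:8474205-8630761, both on the minus strand, and MYH14 (ENSG00000105357) on the plus strand at chr19:50188186-50310544. MYH7B overlaps TRPC4AP on the opposite strand, MYH10 overlaps NDEL1, and MYH7 and MYH14 each overlap an antisense gene. The library kit marks strand, but whether counting used strand is not given in the sources used here, so reads in those overlaps may be shared. The antisense gene inside MYH7 had 7 counts over all 44 libraries.

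Each of the 3 cardiac genes carries a microRNA in an intron, and these are known as the myomiRs that tie heavy chain transcription to the silencing of other muscle genes. The mature sequences (RefSeq, GRCh38.p14) are shown because the seed, bases 2 to 8 in capitals, is shared by the microRNAs of MYH6 and MYH7 and differs from that of MYH7B.
hsa-miR-208a-3p (in MYH6): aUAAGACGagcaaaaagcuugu
hsa-miR-208b-3p (in MYH7): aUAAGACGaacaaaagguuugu
hsa-miR-499a-5p (in MYH7B): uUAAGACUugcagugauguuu
The 3 microRNA genes were listed at 0 counts in all 44 libraries. A total RNA library of this kind is not made to hold RNAs so short, so no microRNA level is read from these files.

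The coding sequences of MYH6 and MYH7 are close enough to matter for counting. The MYH6 transcript ENST00000405093 (5820 coding bases) and the MYH7 transcript ENST00000355349 (5808 coding bases) were identical in 90.9% of 5808 aligned positions, with a longest identical run of 395 bases. Of all MYH6 windows of 150 bases, the length of 1 read, 4.25% occur unchanged in MYH7. The least alike 60 coding bases, in which 35 positions are identical, are shown as an example of a stretch that tells the 2 genes apart. Capitals mark the positions that differ, and the stretch crosses an intron in each gene (chr14:23397566-23398739 in MYH6 and chr14:23427263-23427599 in MYH7, minus strand, GRCh38).
MYH6: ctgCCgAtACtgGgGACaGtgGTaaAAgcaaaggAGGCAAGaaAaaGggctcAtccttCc
MYH7: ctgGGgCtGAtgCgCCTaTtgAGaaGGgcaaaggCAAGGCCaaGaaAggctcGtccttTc
The authors' counts of MYH6 and MYH7 were not whole numbers in any of the 44 libraries, which is how an estimator that divides ambiguous reads between genes writes them. The counts of MYH7B, MYH10 and MYH14 were whole in all 44, those of MYH9 in all but 4 and those of MYH3 in all but 2. A part of the level of one cardiac gene may therefore belong to the other. A part that is small for the more abundant gene need not be small for the other. At day 7 the wells held 103771 to 186538 counts of MYH6 and 372 to 1043 of MYH7. The size of that part was not tested.

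MYH6 was the first cardiac chain to appear, and it rose in 2 steps. It was called higher at day 5 than at day 3 and again at day 7 than at day 5. From day 7 to day 20 its group means lay between 5499 and 7961 CPM. At day 11 MYH6 measured 4350 and 2844 CPM in replicates 1 and 2 and 11004, 11160 and 10449 in replicates 5, 6 and 7. Without replicates 1 and 2 its day 11 mean was 10871 CPM. In the 3 wells of day 3 it measured 21.4, 15.4 and 22.7 CPM. In the 5 wells of day 5 it measured 179, 164, 54.5, 63.8 and 285 CPM, all above day 3 and spread over a wide range. Day 7 gave 7313, 5211, 3727, 4745 and 6498 CPM, again without overlap. A gene was called where edgeR's quasi-likelihood test gave a Benjamini-Hochberg adjusted p under 0.05 over all genes tested and the log2 fold change was at least 1 in size.

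Of the 7 chains, MYH6 alone was called for day 5 against day 3, where 10.1% of all genes were called. Its log2 fold change was 2.91 ± 0.46 (SE, 5 against 3 wells, edgeR adjusted p = 1.19e-05). It was again the only one for day 7 against day 5, where 3.65% of genes were called, with a log2 fold change of 5.20 ± 0.41 (edgeR adjusted p = 1.72e-11). Within each of the 5 sequencing lanes the day 7 well was above the day 5 well, by 4.50 to 6.43 on the log2 scale. Leaving out any 1 well of either group moved the day 7 value only between 4.99 and 5.58. When only the 2 groups compared entered the fit, MYH7B joined the calls, with log2 fold changes of 1.195 for day 5 and 1.16 for day 7.

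The MYH6 promoter is shown because MYH6 had the largest fold change of the 7 chains in the first week. The 250 bases before its RefSeq start site (GRCh38.p14, chr14:23408274-23408523, minus strand) were searched on both strands for TATAAA (the TATA box), CATTCC (the M-CAT element bound by TEAD factors) and GATAA (the core of GATA sites). Matches are in capitals.
MYH6 promoter: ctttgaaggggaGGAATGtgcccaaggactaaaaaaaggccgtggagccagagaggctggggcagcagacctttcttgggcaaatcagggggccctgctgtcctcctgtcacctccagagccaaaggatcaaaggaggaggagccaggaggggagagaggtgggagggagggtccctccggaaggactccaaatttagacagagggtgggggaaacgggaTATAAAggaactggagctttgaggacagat
TATAAA begins 30 bases before the start site (position -30), and CATTCC lies on the opposite strand, read here as GGAATG from position -238. The motifs do not overlap, and GATAA was not found. Over windows of 300 bases (250 before to 50 after the start), TATAAA occurred in 11.5% of 35116 promoters, CATTCC in 14.0% and GATAA in 22.7%. CATTCC also occurred at MYH9 and MYH10, read as GGAATG from position -70 and as CATTCC from position -203. MYH14 had none of the 3, and promoters of MYH7, MYH7B and MYH3 are not shown.

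**Figure D1:**
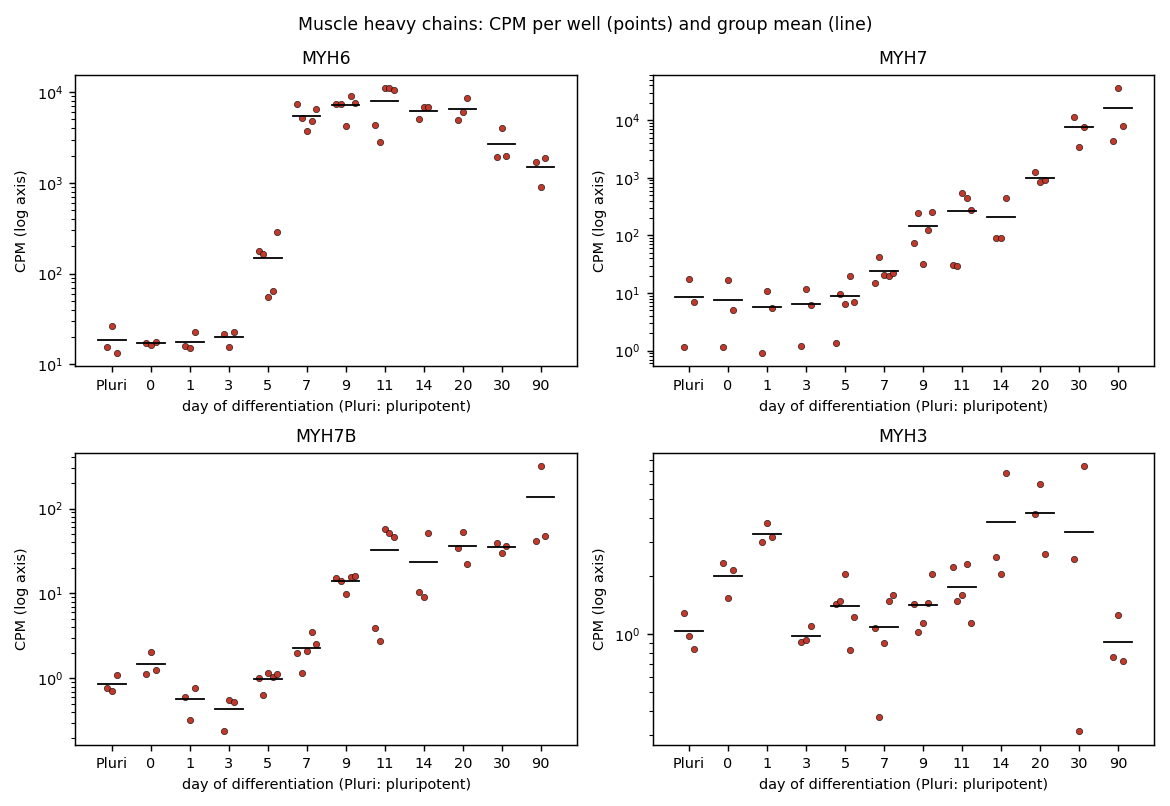
CPM after TMM scaling (log axis) of MYH6, MYH7, MYH7B and MYH3 against the day of differentiation; points are wells and lines are group means. MYH6 rises from group means near 17.0 to 5499 CPM between day 0 and day 7, and MYH7 reaches 7465 CPM on average at day 30. The MYH7 means of days 11 and 14 are 265 and 207 CPM, with overlapping wells. MYH3 stays at group means of 0.914 to 4.28 CPM throughout.

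MYH7 followed later. Per length, its highest well was day 90 replicate 4 with 2224 TPM, against at most 1112 TPM of MYH6 in any well. Its mean over the day 7 wells was 24.0 ± 10.8 CPM (SD, n = 5), and over the day 9 wells 146 ± 101 (n = 5). The means of 3 wells were 1003 ± 226 CPM on day 20, 7465 ± 3963 on day 30 and 16278 ± 17595 on day 90. The day 9 wells measured 74.0, 247, 32.0, 122 and 254 CPM, so they spread over more than the mean itself, and the lowest of them overlapped with day 7. Day 20 (1258, 829.5 and 921 CPM) lay wholly above the groups before it. Day 30 measured 11367, 3443 and 7586 CPM in replicates 1, 10 and 3, and all 3 were above day 20. Day 90 measured 4301, 36479 and 8055 CPM in replicates 2, 4 and 5, of which only replicate 4 was above the day 30 range.

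From day 9 to day 30, MYH7 rose with a log2 fold change of 5.68 ± 0.98 (SE, 3 against 5 wells, edgeR adjusted p = 2.17e-05), while MYH6 fell by 1.43 ± 0.42 on the log2 scale (adjusted p = 0.00867). MYH3 was also called in that comparison, with 18.9% of all genes. The day 30 wells held 1931, 4021 and 1997 CPM of MYH6, below the 4203 to 9090 CPM of day 9. Without day 30 replicate 1 or replicate 3 the MYH6 difference was -1.25 or -1.26, and its adjusted p 0.0544 or 0.0553, and limma on log2(TPM + 1) gave -1.13 (adjusted p = 0.085). MYH7B was not called (1.31 ± 0.61, adjusted p = 0.0959), but it was without day 11 replicates 1 and 2 (1.335, adjusted p = 0.0191), with the 2 groups alone (1.36, adjusted p = 0.000575) and with the well number as a block (1.505, adjusted p = 0.0224). The well with the most MYH6 and least MYH7 at day 30 was replicate 10, whose RNA integrity number of 7.4 was the lowest of the group. The part of RNA quality in that difference was not tested.

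Between day 9 and day 90, MYH6 and MYH7 changed in the same directions as between day 9 and day 30. MYH7 rose by 6.80 ± 1.02 (log2, adjusted p = 1.26e-06) and MYH6 fell by 2.26 ± 0.44 (adjusted p = 7.77e-05), and 4 of the 7 chains were called against 23.9% of all genes. This comparison shares its day 9 wells with the one before. Without day 90 replicate 4 the MYH7 value was 5.41 (adjusted p = 2.87e-05). In that replicate MYH6 and MYH7 together made up 2.91% of all counts, against 0.492% and 0.808% in replicates 2 and 5. Its cardiomyocyte markers summed to 18579 CPM against 12538 and 13183, and its fibroblast and epicardial markers to 2108 against 12114 and 6163. The part of cell composition in these differences was not tested.

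Day 90 against day 30 gave no call for either gene in edgeR. MYH7 had a log2 fold change of 1.13 ± 1.01 (edgeR adjusted p = 0.54), which turned to -0.25 without day 90 replicate 4, and MYH6 had -0.83 ± 0.45 (adjusted p = 0.27). Although MYH6 missed the threshold, its 3 day 90 wells (1685, 904 and 1879 CPM) were all below its day 30 wells. Limma on log2(TPM + 1) did call MYH6 lower in this comparison (-1.67, adjusted p = 0.0289), and MYH10 with it (-1.209, adjusted p = 0.0332).

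The share of MYH7 in the summed TPM (the authors' length-scaled abundance) of MYH6 and MYH7 compares the genes per length within a well, free of library scaling. It was 0.719% to 3.08% in the day 9 wells. It was 19.1%, 11.5% and 9.35% at day 20, then 84.8%, 44.9% and 77.8% at day 30 (replicates 1, 10 and 3), and 70.3%, 97.4% and 80.2% at day 90 (replicates 2, 4 and 5). All wells of day 30 and day 90 lay above every well of days 5 to 20. The mean share was 67.4 percentage points higher at day 30 than at day 9 and 80.9 points higher at day 90 (two-sided exact permutation test over wells, p = 0.0179 for each, the smallest that 56 splits allow, and 0.0446 adjusted over 5 tests). Between day 90 and day 30 the difference was 13.5 points (exact p = 0.5, adjusted 0.54, where 0.1 is the smallest possible). Within lanes the day 30 wells were 41.9 and 81.7 points above day 9, and the day 90 wells 74.3 and 94.4 points.

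Shares before day 5 need care. At day 0 the MYH7 share was 6.01%, 47.8% and 21.4%, although MYH6 was steady at 17.0, 16.3 and 17.5 CPM. MYH7 itself measured 1.17, 16.6 and 5.01 CPM in those wells, and the wells were sequenced in lanes 1, 4 and 3. The following comparison shows how these low values lay along the lanes.

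In the 12 libraries up to day 3, the estimated count of MYH7 ranged from 26.6 to 571, a 21.5-fold spread, and fell into lane groups whatever the day. Lane 1 (4 early libraries) held 26.6 to 35.4 counts, and the other libraries of lane 1 held 42914 to 42923. Lane 3 (3 libraries) held 145 to 173 counts against 202411 to 202439 elsewhere in the lane, lane 5 (1 library) 190 against 258420, lane 2 (2 libraries) 321 to 341 against 295656 to 295676 and lane 4 (2 libraries) 499 to 571 against 584071 to 584142. The order of the lanes was the same on both counts. An early library thus carried 0.0621% to 0.115% of the MYH7 count in the rest of its lane. The lane with the most MYH7 was the one that held day 90 replicate 4, with 524300 counts.

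Day 5 showed the same order. Its 5 wells, 1 per lane, had 35.1, 236, 151, 454 and 191 counts of MYH7 in lanes 1 to 5, which is 0.0738% to 0.0819% of the rest of each lane. At day 7 the share of the lane was above that in every well, at 0.179% to 0.875%. Lane carry-over as the source of the early counts was not tested, since no library was sequenced in more than 1 lane. Levels of MYH7 up to day 5 are therefore given here without a reading, and fold changes against day 0 rest on them. The part of such counts in the day 7 levels of MYH7, and in changes measured from day 7, was not tested.

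MYH6 did not line up with the lanes in the same way. Its early counts were 365 to 861, a 2.36-fold spread, at 0.0407% to 0.129% of the rest of the lane. The single early library of lane 5 had the fewest counts, although lane 5 held the most MYH6 elsewhere. The lanes themselves differed little in MYH6, from 545528 to 896889 counts, so they give little range for such a comparison. Lane carry-over as the source of these early MYH6 counts was not tested, and MYH6 fold changes against day 0 and day 3 rest on them. At day 5 the wells held 0.152% to 0.861% of their lane's MYH6, above every earlier library.

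**Figure D2:**
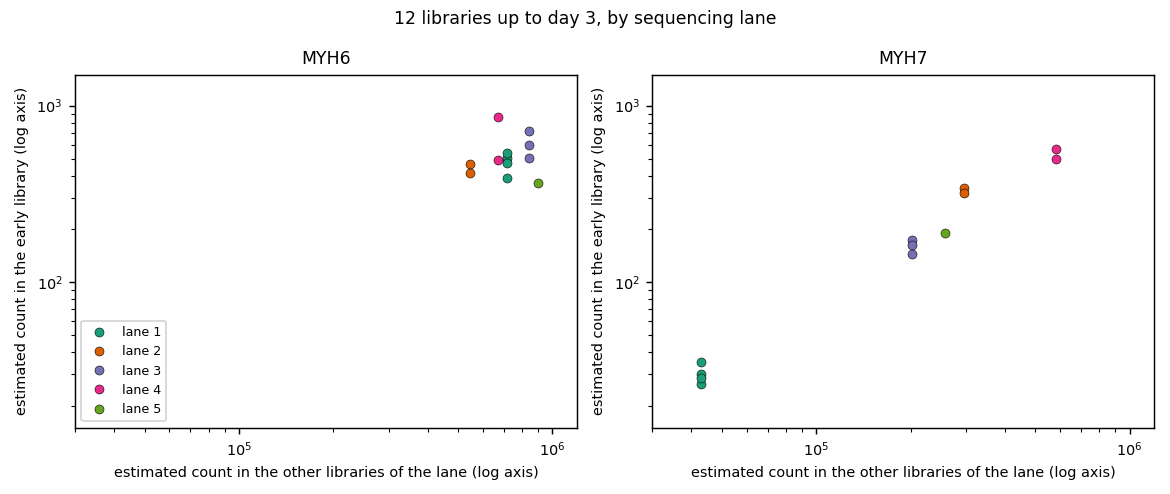
Estimated count of MYH6 (left) and MYH7 (right) in each of the 12 libraries up to day 3 against the count of the same gene in the other libraries of its sequencing lane, both on log axes, coloured by lane. MYH7 counts climb from 26.6 to 571 with the lane's own MYH7, and MYH6 counts stay between 365 and 861.

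Against day 0, 3 of the 7 chains were higher at day 9, where 31.7% of all genes were called and 17.1% were called higher. MYH6 had a log2 fold change of 8.72 ± 0.62 (SE, 5 against 3 wells, edgeR adjusted p = 2.83e-14), MYH7 of 4.26 ± 1.11 (adjusted p = 0.00168) and MYH7B of 3.26 ± 0.76 (adjusted p = 0.000488). The MYH7B call was lost with limma on log2(TPM + 1) (1.108, adjusted p = 0.0671). Leaving out day 0 replicate 2, the lane 4 well, raised the MYH7 value to 5.56. Within lanes 1 and 4, which hold wells of both days, MYH7 was higher by 5.48 and 3.86, and MYH6 by 8.73 and 8.78. The difference between the lanes was in MYH7 and not in MYH6.

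MYH7B encodes a slow-type chain of the same branch as MYH7 and rose between days 7 and 9. It measured 1.99, 1.15, 2.08, 3.495 and 2.54 CPM at day 7 and 15.2, 14.0, 9.93, 15.5 and 16.1 CPM at day 9, without overlap. This was the single call among the 7 chains for day 9 against day 7, where 1.28% of all genes were called (log2 fold change 2.65 ± 0.59, edgeR adjusted p = 0.00895). MYH7 had nearly the same size of change, 2.60 ± 0.82, but a wider spread and an adjusted p of 0.10. With the well number as a block, which pairs the wells of these days, MYH7 passed as well (2.42, adjusted p = 0.0456), giving 2 calls, as it did without day 11 replicates 1 and 2 (2.61, adjusted p = 0.0424). DESeq2 also called 2, and limma on log2(TPM + 1) called 0 of the 6 members it tested, with 2 at an unadjusted p under 0.05.

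Later MYH7B depended on single wells. Day 11 split into 3.96 and 2.77 CPM in replicates 1 and 2, the wells with the high endoderm markers, and 58.1, 52.2 and 46.0 in the others. Day 30 was even at 39.3, 29.9 and 35.8 CPM. Day 90 measured 42.0 and 48.0 CPM in replicates 2 and 5 and 317 in replicate 4. Day 90 against day 9 was called with a log2 fold change of 3.26 ± 0.62 (adjusted p = 5.24e-05), which fell to 1.68 without replicate 4 (adjusted p = 0.0258). Day 90 against day 30 was not called (1.95 ± 0.71, adjusted p = 0.0813), and its value was 0.38 without replicate 4 and 2.35 (adjusted p = 0.0487) without replicate 2. Without day 11 replicates 1 and 2 it was called (1.92, adjusted p = 0.0149).

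MYH3, the embryonic skeletal chain, never exceeded 7.46 CPM in a well. Its highest group means were 4.28 ± 1.71 CPM on day 20, 3.81 ± 2.66 on day 14 and 3.404 ± 3.667 at day 30 (SD, n = 3 each). The day 30 wells measured 2.44, 0.312 and 7.46 CPM and enclosed the whole range of day 9. MYH3 was called higher at day 30 than at day 9 (1.27 ± 0.47, adjusted p = 0.0348), but its value was 0.01 without day 30 replicate 3, and the call was lost in 5 of 8 fits that left out a well. Leaving out day 9 replicate 1, 10, 2 or 3 gave an adjusted p of 0.0541, 0.0703, 0.0694 or 0.0517. The call was also lost with the well number as a block (1.067, adjusted p = 0.0532), with lane as a factor (0.94, adjusted p = 0.13) and with the 2 groups alone (1.296, adjusted p = 0.17). Day 1 stood out among the early days with 3.00, 3.79 and 3.18 CPM, above all wells of day 0 and day 3.

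**Figure D3:**
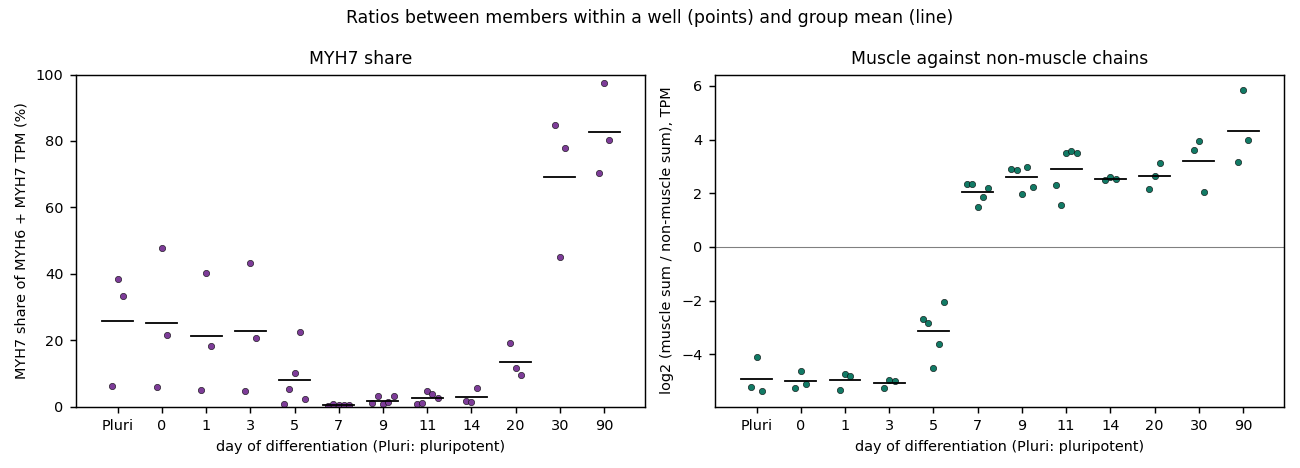
Left, MYH7 share (percent) of the summed TPM of MYH6 and MYH7; right, log2 ratio of the summed TPM of the 4 muscle chains to that of the 3 non-muscle chains; points are wells and lines are group means, by day. The MYH7 share passes from at most 3.08% at day 9 to at least 44.9% at day 30, and the ratio changes sign between day 5 and day 7.

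The muscle chains outweighed the non-muscle chains from day 7 on. The 4 muscle chains summed to 3.11 ± 0.79 TPM at day 0 and 1015 ± 1127 on day 90 (SD, n = 3 each), and in between to 17.0 ± 13.7, 473 ± 228 and 636 ± 384 on days 5, 7 and 9 (n = 5 each). The 3 non-muscle chains summed to 97.1 ± 3.4 TPM at day 0, and to 124 ± 30 and 113 ± 46 on days 5 and 7. The ratio of the sums averaged 0.0300 to 0.0362 in the groups up to day 3, then 0.132, 4.24 and 6.25 on days 5, 7 and 9, and 27.6 ± 26.6 on day 90 (SD, n = 3). The day 90 wells had ratios of 8.85, 58.0 and 15.9, and without replicate 4 the mean was 12.4. The ratio was above 1 in every well from day 7, with a lowest value of 2.82, and at most 0.242 in every well before that. This sum over chosen genes is a description and carries no test. It includes the early counts of MYH6 and MYH7, for which lane carry-over was not tested.

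MYH6, MYH7 and MYH7B ranged far wider over the groups than the other chains. The highest group mean was 470 times the lowest for MYH6, from day 0 to day 11, and 641 times without day 11 replicates 1 and 2. Lane carry-over in that day 0 level was not tested. For MYH7B the highest group mean was 307 times the lowest, from day 3 to day 90, and 102 times without day 90 replicate 4. That day 3 mean of 0.442 CPM rests on 6, 15 and 14 counts. For MYH7, whose levels up to day 5 are not read here, the day 90 mean was 678 times that of day 7, and 257 times without day 90 replicate 4. The day 7 counts were 0.179% to 0.875% of the rest of their lane, against 0.0738% to 0.0819% at day 5. The part of lane carry-over in this day 7 baseline was not tested. For MYH3 the highest group mean was 4.68 times the lowest, for MYH14 3.21, for MYH10 2.86 and for MYH9 2.69. Ordering the 12 group means of a gene gives 11 pairs of neighbours, and most neighbours overlapped in their wells: 8 of 11 for MYH6, 9 for MYH7, 10 each for MYH7B, MYH3, MYH9 and MYH10, and 11 for MYH14. For MYH6, in order of level, day 5 was separate from day 3 below it and from day 90 above it, and day 90 from day 30. For MYH7, day 20 was separate from day 11 below it and from day 30 above it.

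MYH9, the chain of stress fibres and the cell cortex in most tissues, was present at 312 CPM or more in every well. Its group means ran from 398 ± 54 CPM in the pluripotent wells and 557 ± 37 at day 0 to 847 ± 80, 874 ± 258 and 1070 ± 964 on days 7, 9 and 30 (SD, n = 3, 3, 5, 5 and 3). At day 90 it measured 409, 419 and 423 CPM, close together and below all wells of day 9 (663, 777, 701, 930 and 1297 CPM). This difference was called (log2 fold change -1.07 ± 0.31, edgeR adjusted p = 0.00597), just past the fold limit. Without day 9 replicate 4 the value was -0.88, and with DESeq2 or with its size factors in edgeR it was -0.99, all under the limit.

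For day 90 against day 30, 5.09% of all genes and 2 of the 7 chains were called, MYH9 (-1.36 ± 0.34, adjusted p = 0.0094) and MYH3 (-1.93 ± 0.57, adjusted p = 0.0283). Both rest on day 30 replicate 3, which held 2155 CPM of MYH9 against 744 and 312 in replicates 1 and 10. Without it MYH9 had -0.34 (adjusted p = 0.54) and MYH3 -0.68 (adjusted p = 0.55), and edgeR called 0 of the 7 (2 at an unadjusted p under 0.05). MYH3 was also lost without day 90 replicate 2 (-1.81, adjusted p = 0.0999) or replicate 5 (-1.79, adjusted p = 0.11). Both calls were also lost with lane as a factor (-1.23, adjusted p = 0.0507 for MYH9, and -1.301, adjusted p = 0.21 for MYH3) and with the 2 groups alone (adjusted p = 0.49 and 0.53). The ranges of the 2 days overlapped for both genes. In day 30 replicate 3 the fibroblast and epicardial markers summed to 5847 CPM against 3164 and 2439 in the other 2 wells. High sums did not always come with high MYH9. Day 20 replicate 1 had the most of both in its group (8196 CPM of markers, 1171 of MYH9). Day 9 replicate 2 had the highest sum of its day (4515 CPM) with 701 CPM of MYH9, and day 90 replicate 2 had 12114 with 409. The part of other cell types in the MYH9 level of day 30 replicate 3 was not tested.

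MYH10, the non-muscle chain of early heart and brain, peaked at day 5 and then declined. It measured 555, 552 and 555 CPM at day 3 and 783, 855, 1018, 725 and 772 at day 5, without overlap. That difference had a log2 fold change of 0.58 ± 0.19 and an edgeR adjusted p of 0.0244, under the fold limit for a call. By day 90 it measured 383, 224 and 264 CPM, below the 448 to 631 CPM of day 9. The log2 difference from day 9 was -0.85 ± 0.19 (adjusted p = 0.000355), which passed the test but not the fold limit, and it reached -1.12 (adjusted p = 9.86e-05) without day 90 replicate 2 and -1.37 (adjusted p = 0.00292) with limma on log2(TPM + 1).

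The balance of MYH10 to MYH9 in TPM went up and down over the first days, and its difference between day 0 and day 9 fell short of the threshold. The ratio was 1.59 ± 0.18 in the pluripotent wells, 1.10 ± 0.08 at day 0, 0.813 ± 0.117 at day 1 and 1.09 ± 0.12 at day 3 (SD, n = 3 each). It was 1.31 ± 0.13 at day 5, 0.88 ± 0.13 at day 7 and 0.673 ± 0.150 at day 9 (n = 5 each). All 5 wells of day 9 lay below the 3 of day 0. The log2 ratio differed by -0.74 (two-sided exact permutation test, p = 0.0357, adjusted 0.0595 over 5 tests). Between day 90 and day 9 it differed by 0.11 (exact p = 0.54, adjusted 0.54).

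MYH14, the chain best known from epithelia, had the lowest TPM of the non-muscle members in all 44 libraries, and its mean CPM was highest at day 0. It measured 36.6, 40.7 and 36.2 CPM at day 0 and 16.1, 18.5 and 17.2 at day 3, without overlap. It was the only one of the 7 chains called for day 3 against day 0, where 16.6% of genes were called (log2 fold change -1.13 ± 0.41, edgeR adjusted p = 0.0396). The call was lost in all 6 fits that left out a well, with values of -1.16 to -1.06. When only the 2 days entered the fit, 3 chains were called, as MYH7B (-1.703) and MYH3 (-1.02) were added. Limma on log2(TPM + 1) called 0 of the 6 members it tested, with 0 at an unadjusted p under 0.05, and DESeq2 called 1 of the 7.

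At day 9, MYH14 measured 12.8, 11.8, 15.7 and 16.6 CPM in replicates 1, 10, 3 and 4 and 39.1 in replicate 2. That well also had the highest endoderm markers of day 9, 6768 CPM against 673 to 2214, and the lowest cardiomyocyte markers, 2768 CPM against 5161 to 9330. At day 11 the 2 wells with high endoderm markers had 17.9 and 28.0 CPM of MYH14 against 9.57 to 12.7 in the other 3. Day 14 went the other way. Its replicate 6 had the most MYH14 (24.6 CPM against 23.4 and 19.9) and the fewest endoderm markers (3506 CPM against 4423 and 4479). At day 20, replicate 3 had the most MYH14 (32.9 CPM against 8.90 and 16.8) and the most endoderm markers (5223 CPM against 2085 and 1144). Day 30 replicate 3 and day 90 replicate 4 also had the most of both in their groups, with 380 and 213 CPM of endoderm markers. The 4 epithelial markers, most of whose summed CPM is KRT8 and KRT18, gave 2118 CPM in day 9 replicate 2 against 1999 to 3391, 1830 and 2052 in day 11 replicates 1 and 2 against 1742 to 2218, and 2461 in day 20 replicate 3 against 2756 and 1251. The other 2 markers, EPCAM and CDH1, were highest of their day in the wells named for days 11, 20, 30 and 90. They were not highest in day 9 replicate 2. EPCAM measured 68.5 and 81.9 CPM in day 11 replicates 1 and 2 against 24.8 to 38.8, and 92.7 in day 20 replicate 3 against 35.1 and 33.6. CDH1 measured 55.2 and 89.5 CPM against 28.5 to 45.1 on day 11, and 126 against 43.6 and 36.2 on day 20. In day 30 replicate 3, EPCAM measured 35.6 CPM against 11.5 and 10.2, and CDH1 62.2 against 16.2 and 9.92. In day 90 replicate 4, EPCAM measured 20.7 CPM against 5.56 and 10.1, and CDH1 54.3 against 42.3 and 33.2. The sums of all 4 markers in these wells were 3192 CPM against 2250 and 755, and 1134 against 1381 and 964. The part of endoderm or epithelial cells in the MYH14 level was not tested.

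Day 9 replicate 2 also moved MYH14 across the fold limit. For day 9 against day 0 its log2 fold change was -0.98 ± 0.36 (adjusted p = 0.0227), just under the fold limit, and -1.41 (adjusted p = 0.000862) without that well. With all day 9 wells kept it was also called with lane as a factor (-1.04, adjusted p = 0.0224) and without day 11 replicates 1 and 2 (-1.004, adjusted p = 0.0114). For day 90 against day 9 it was 0.68 ± 0.36 (adjusted p = 0.14), and 1.11 (adjusted p = 0.00954) without it. The 3 wells of day 90 measured 20.3, 46.1 and 26.2 CPM. The highest was again replicate 4, the well with the most MYH7 and MYH7B.

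**Figure D4:**
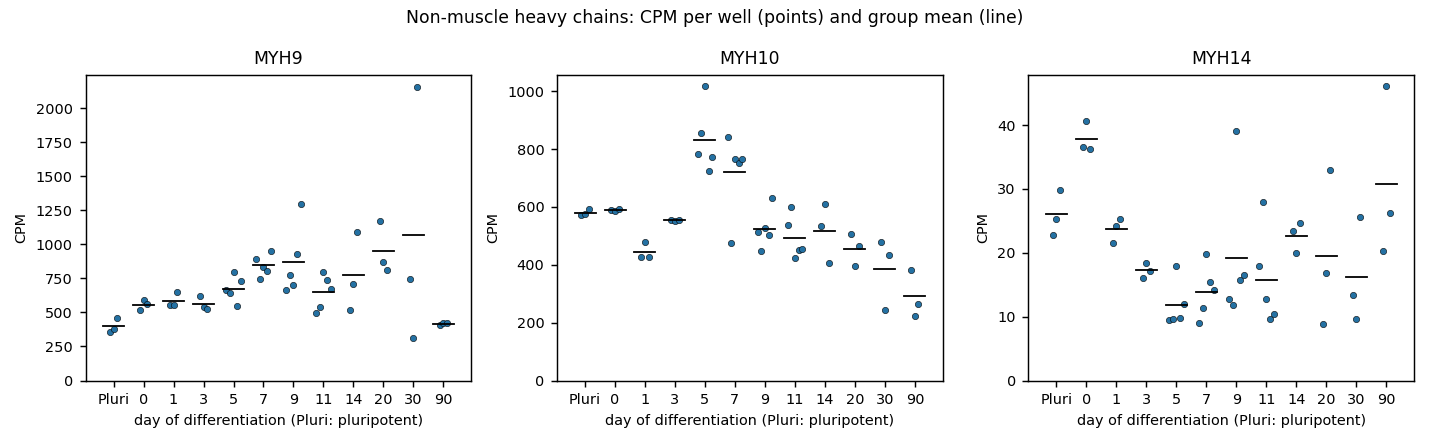
CPM after TMM scaling (linear axis from 0) of MYH9, MYH10 and MYH14 by day; points are wells and lines are group means. MYH9 spreads widest at day 30 (312 to 2155 CPM), MYH10 declines from 831 CPM at day 5 to 290 at day 90, and MYH14 is highest at day 0 with a mean of 37.8 CPM.

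**Figure D5:**
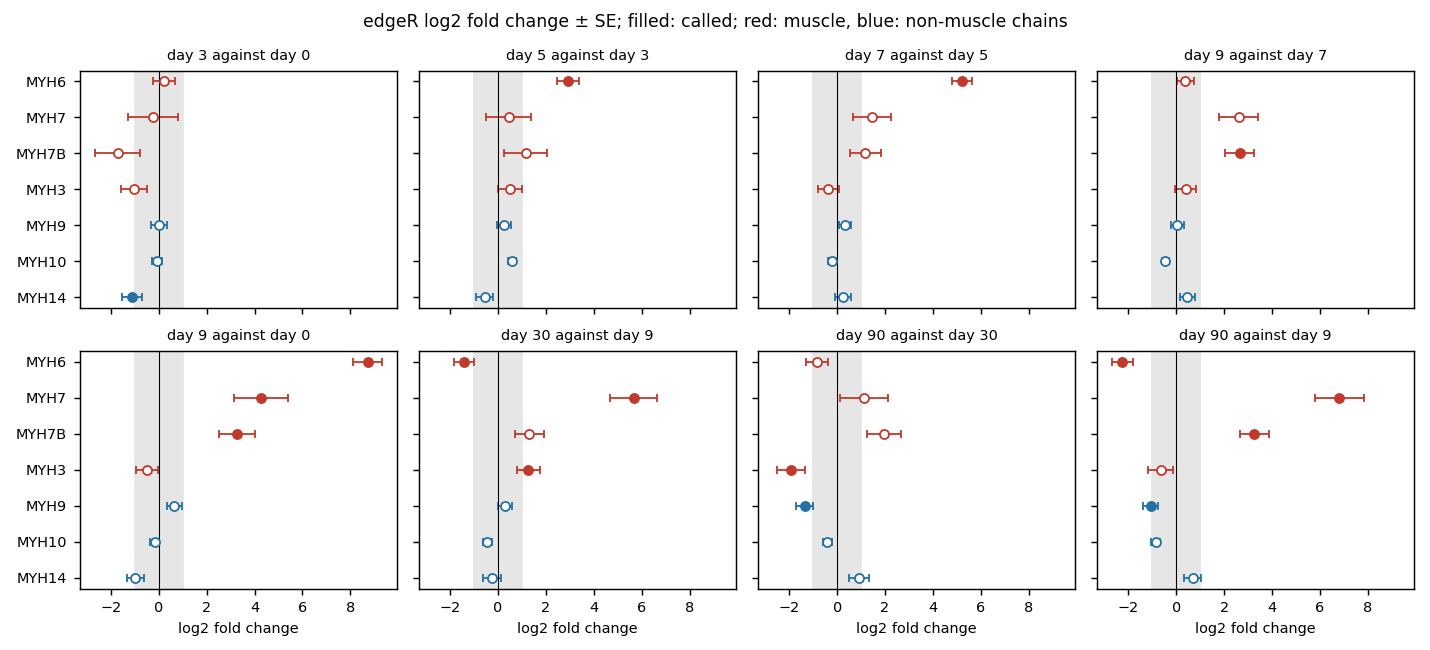
Log2 fold change ± SE from edgeR for the 7 chains in 8 comparisons, muscle chains in red and non-muscle chains in blue; filled points were called and the grey band marks changes under the fold limit of 1. The largest values are those of MYH6 for day 9 against day 0 (8.72) and MYH7 for day 90 against day 9 (6.80), and no non-muscle chain exceeds 1.36 in size.

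Of 8 other heavy chain genes, 5 passed the filter (MYH2, MYH4, MYH11, MYH13 and MYH15). At day 30 against day 9, where 18.9% of all genes were called in either direction, 4 of the 5 were called higher, with a median log2 fold change of 2.28 against 0.07 over all genes tested. MYH4, the fast IIb skeletal chain, was listed at 0 counts in every day 0 well, had at most 8 counts at day 9, and measured 29.9, 42.7 and 8.03 CPM at day 20 and 11.5, 23.8 and 15.8 at day 30. By day 90 its 3 wells held 0, 1 and 2 counts, and the fall from day 30 was called (adjusted p = 1.23e-07). MYH2, the fast IIa skeletal chain, had 2 periods of expression: 6.61, 6.79 and 6.15 CPM at day 0, at most 2 counts at day 3, then 6.37, 11.4 and 2.30 CPM at day 20 and 12, 1 and 1 counts at day 90.

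The regulators that define skeletal muscle were at low counts beside these fast chains. MYF5 and MYF6 were at or under 3 counts in every well of days 20, 30 and 90. MYOD1 was too, except in day 20 replicate 2 with 7 counts (0.958 CPM). At day 14, where MYH4 measured 7.24, 7.33 and 2.68 CPM, MYOD1 reached 10 counts (1.00 CPM) in its highest well. PAX7, also on the list of skeletal markers, reached 19 counts that day, and MYOG, MYF5 and MYF6 were at or under 3. MYOG had 7, 2 and 1 counts at day 20, 0, 6 and 4 at day 30, and 28, 22 and 30 at day 90 (1.26, 1.53 and 1.68 CPM), where MYH4 was at most 2 counts. The 6 skeletal markers summed to 213 to 372 CPM at day 30 and 587 to 958 at day 90, and that list includes CKM, the muscle creatine kinase also present in heart. MYH11, the smooth muscle chain, rose at day 7 against day 5 (log2 fold change 4.11, adjusted p = 7.59e-07) from 0.734 to 12.8 CPM on average, and measured 46.0 ± 31.5 CPM at day 90 (SD, n = 3). The 5 smooth muscle markers, MYH11 among them, summed to 136 to 222 CPM at day 5 and 717 to 1448 at day 7.

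The light chains that pair with the muscle heavy chains split by time as well. Of 4 tested, 3 were higher at day 9 than at day 0: MYL7, the atrial regulatory light chain (log2 fold change 8.58), MYL4, the atrial essential light chain (8.02), and MYL3, the ventricular essential light chain (7.54), with a list median of 7.78 against 0.08 over all genes, of which 31.7% were called and 17.1% were called higher. MYL2, the ventricular regulatory light chain, was the largest change of the list at day 30 against day 9 (7.79, adjusted p = 1.24e-11). Its wells measured 265, 22.6 and 33.1 CPM at day 30 and 222, 259 and 319 at day 90. The order of the day 30 wells for MYL2 put replicate 1 highest and replicate 10 lowest, as for MYH7. At day 90 all 4 were higher than at day 9 (median 2.01 against -0.02 over all genes, of which 23.9% were called in either direction).

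Thick filament partners rose early too. At day 9 against day 0, 8 of 10 tested were higher and 1 lower, with a median of 5.90, where 31.7% of all genes were called, 17.1% higher, with a median of 0.08. The largest were UNC45B, the chaperone that folds striated muscle myosin (8.28), MYBPC3, the cardiac myosin binding protein C (7.54), MYLK3, the cardiac light chain kinase (7.47), and SMYD1, a methyltransferase needed for thick filament assembly (7.39). The one that fell was MYBPC2, the fast skeletal binding protein C (-3.92). UNC45B and SMYD1 had already risen at day 5 against day 3 (5.70 and 5.35), and MYBPC3 rose at day 7 against day 5 (5.62). At day 30 against day 9, 6 were higher and MYOM2, an M-band protein, was lower (-2.10), with a median of 1.64 against 0.07 over all genes, of which 18.9% were called.

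The partners of the non-muscle chains changed less. Of 5 non-muscle light chains, MYL9, the smooth muscle and stress fibre regulatory light chain, was the single one higher at day 9 than at day 0 (2.94) and again at day 30 than at day 9 (2.07), with list medians of 0.29 and 0.45. Those counts, 1 of 5 each, stand beside 31.7% and 18.9% of all genes called in either direction. Of 10 regulators, PPP1R12B, a myosin phosphatase subunit found in heart and smooth muscle, was higher at day 9 than at day 0 (3.94), and CIT, the cytokinesis kinase, was lower (-1.28), with a median of -0.28. At day 90 against day 9, 3 of the 10 were higher, near the 23.9% of all genes called, with a median of 0.09 against -0.02: S100A4, which binds MYH9 (1.63), MYLK, the smooth muscle light chain kinase (1.37), and PPP1R12B (1.202).

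Among 12 transcription factors known to act on the cardiac heavy chain genes, 9 were higher and 1 lower at day 9 than at day 0, with a median of 1.54 against 0.08 over all genes, of which 31.7% were called, 17.1% higher. TBX5 (8.15), GATA4 (7.54), NKX2-5 (7.06) and MEF2C (5.97) led. GATA4 and TBX5 had risen at day 3 against day 0 (6.49 and 2.53), before any member was called higher. At day 30 against day 9, 3 of the 12 were called, with 18.9% of all genes: MEF2A (1.68) and SRF (1.22) were higher and RXRA, a partner of thyroid hormone receptors, was lower (-1.25). THRB, the beta thyroid hormone receptor, was the one that fell by day 9 (-1.72), and at day 90 against day 9 THRA, the alpha receptor, was higher (1.07).

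Each chain was also set against 16855 protein-coding genes by the Pearson correlation of log2(CPM + 1) over the 44 libraries, which share the time course, lanes and scaling. The closest to MYH6 were CACNA1D (r = 0.98), a calcium channel of pacemaker cells, NKX2-5 (0.97) and VCAM1 (0.97). MYH7 was closest to TCAP (0.97), a titin-binding protein of the Z-disc, TMEM173 (0.97) and LMOD2 (0.96), a thin filament length regulator. MYH7B was closest to PRSS42 (0.97), COX6A2 (0.96), the muscle form of a cytochrome oxidase subunit, and GJA3 (0.96). The non-muscle chains and MYH3 had no match of that closeness. The top genes were CSNK1D for MYH9 (0.87), NFYA for MYH10 (0.88), LTO1 for MYH3 (0.85) and ITPR2 for MYH14 (0.76).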

How the data were processed

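The members and gene lists were chosen with earlier results of these data known. Per the submitters' processing notes the authors used cutadapt, STAR 2.5.2b, RSEM 1.2.31 and hg38; the annotation release and the strand setting are not given in the sources used here. They deposited estimated counts and TPM per gene for 44 libraries (150 bp paired-end reads from a stranded total RNA kit), with lane and an RNA integrity score per library in a separate table as deposited; 93.8% of all count values, zeros included, were whole. Of 60499 gene IDs, 56769 matched GENCODE 29, which supplied symbols. MHRT was not matched by symbol and MYHAS, which lies in the skeletal heavy chain cluster, was not tested.

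Estimated counts were rounded to whole numbers. The edgeR 4.0.16 quasi-likelihood fit (R 4.3.3) used filterByExpr, TMM and 1 mean per group over all 44 libraries, with 8 contrasts. TPM gave shares and ratios, tested exactly over wells with scipy 1.17.1, and within-lane differences used log2(CPM + 0.5). Named genes were the 7 members, at most 4 called genes per list and comparison with the largest change, and 3 correlated genes per member; MYBPC2, MYOM2 and THRB, each the 1 gene of its list that fell, were named after their values were seen. Alternatives were other size factors, filters, DESeq2 1.42.0, limma 3.58.1 on log2(TPM + 1), lane as a factor, the 2 groups alone, the well number as a block, leaving out each well and, added after seeing the data, leaving out day 11 replicates 1 and 2. Same-numbered wells correlated in all 5 pairs of days 7 and 9 (r = 0.11 to 0.67), the one comparison where numbers could be taken as pairs. The main fit did not pair them, and the well number as a block was 1 factor over all 44 libraries. The 64 pairs of replicates differed by more than counting noise (chi-square per degree of freedom 5.38 to 310). Scripts were tested on simulated data.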

Additional observations from a re-analysis of the deposited data

Results flagged for a closer look

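Among 40 sets of 5 wells (days 5, 7, 9 and 11) examined for 1 well far from the others (the gap to its nearest neighbour over 0.71 of the whole range), 5 were found; chance gives about 1 in 20. At day 7, replicate 10 had the highest MYH7 (42.7 CPM against 14.8 to 22.3) and the lowest MYH10 (475 CPM against 753 to 843). It was sequenced in lane 4, the lane with the most MYH7. At day 5, replicate 2 had the lowest MYH7B (0.639 CPM against 1.01 to 1.16) and replicate 3 the highest MYH14 (17.9 CPM against 9.52 to 11.9). At day 9, replicate 2 had the highest MYH14 (39.1 CPM against 11.8 to 16.6), in the well with the most endoderm marker counts.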

How the results depend on the processing

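Of the 8 comparisons, the number of heavy chains called stayed within 1.5 times under other size factors and with at least 1 CPM in at least 3 libraries. For day 9 against day 7 (1 called) it was 2 with no filter, with the well number as a block, with the 2 groups alone, with DESeq2 and without day 11 replicates 1 and 2 (chosen after seeing the data), and 0 of 6 with limma (2 at an unadjusted p under 0.05). For day 90 against day 30 (2 called) it was 0 in edgeR with lane as a factor (5 at an unadjusted p under 0.05) and 0 with the 2 groups alone (1). For day 3 against day 0 (1 called) it was 3 with the 2 groups alone and 0 of 6 with limma (0 at an unadjusted p under 0.05). With the 2 groups alone it was 2, in place of 1, for day 5 against day 3 and likewise for day 7 against day 5. Limma called 1 of the chains at day 30 against day 9, in place of 3. The cause was not tested; limma does not test MYH3, whose mean TPM is under 1. The block moved no other count by over 1.5 times, though at day 30 against day 9 it called MYH7B in place of MYH3, and it could not be checked for pairs at day 90 against day 30, which share 0 well numbers.

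Leaving out 1 well at a time gave 0 called in edgeR for day 3 against day 0 (1 at an unadjusted p under 0.05 each time), 1 to 3 for day 30 against day 9 and 0 to 2 for day 90 against day 30. The MYH7 share differed by 59.6 to 79.5 points on day 30 and by 73.5 to 87.0 on day 90, each against day 9; the adjusted p rose to 0.0714 or 0.0794 where it passed 0.05, since fewer wells allow fewer splits. The log2 ratio of MYH10 to MYH9 differed by -0.83 to -0.67 for day 9 against day 0, with an adjusted p of 0.0476 without day 9 replicate 3 or 4, and by -0.0814 to 0.23 for day 90 against day 9.

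Values that changed sign were not called with all wells. For day 3 against day 0, MYH9 (0.02) was -0.00828 with other size factors and with DESeq2, -0.00483 with no filter, -0.00666 with the CPM filter, -0.0403 with lane as a factor, and -0.0296 to 0.10 without 1 well. MYH7 (-0.24) was 0.35 with lane as a factor, 0.0591 with limma and -1.02 to 1.08 without 1 well, and MYH10 (-0.09) was 0.26 with limma. For day 5 against day 3, MYH7 (0.45) was -0.33 with the block and -0.0796 to 1.28 without 1 well, and MYH9 (0.26) was -0.072 with limma. MYH14 for day 7 against day 5 (0.24) was -0.0175 with limma. For day 9 against day 7, MYH9 (0.04) was -0.055 with limma and -0.14 to 0.13 without 1 well. MYH10 for day 9 against day 0 (-0.17) was 0.00488 with the block. For day 30 against day 9, MYH14 (-0.24) was 0.08 with limma and -0.74 to 0.19 without 1 well, and MYH9 (0.29) was -0.73 to 0.71 without 1 well. MYH7 for day 90 against day 30 (1.13) was -1.05 with the block, -0.17 with limma and -0.25 to 1.56 without 1 well. Groups of 3 to 5 wells limit what these fits can separate, and CPM under 1 rest on few counts.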
